A study of Danio rerio with 2 samples.

Results

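The genes described here encode the machinery of DNA replication and mitosis: 32 zebrafish genes chosen by symbol, from the sliding clamp pcna and the helicase subunits mcm2 to mcm7 to the mitotic cyclins, kinases and checkpoint proteins. The choice was made with earlier results of these data known. Of these 32 symbols, 23 matched a row of the deposited tables, out of 17963 genes listed in all, and 21 of the 23 had at least 1 tag. The rows cover 12 of 14 replication genes, 9 of 14 mitosis genes, and 2 of 4 genes of the G1 to S phase cyclin and kinase group. The symbols without a matched row were fen1, rrm2, ccnd1, ccne2, cdk1, bub1, ttk, top2a and birc5a, and these were not analysed here. The rows of ccna2, the S phase cyclin, and cdc20, an activator of the anaphase-promoting complex, were listed at 0 in both libraries. If their transcripts yield a mapped tag, this allows up to 0.679 RPM with arsenate and 1.16 RPM with water (3 tags each).

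Cells that divide copy their DNA once in S phase and separate the copies in mitosis. Before S phase the MCM helicase is loaded on origins, geminin blocks a second loading, and during synthesis PCNA holds the polymerases while replication protein A (RPA) covers single-stranded DNA. In mitosis cyclin B with CDK1 drives entry, Aurora and Polo-like kinases build the spindle, and the spindle checkpoint holds anaphase until every chromosome is attached. Most hepatocytes of an adult liver are out of the cycle, so transcripts of this machinery are scarce there. PCNA and RPA also act in DNA repair.

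The study compared liver RNA of wild-type sibling zebrafish aged 3 months after 96 h in sodium arsenate with liver RNA of fish kept in water as control. Per the labels, tanks held 3 L and about 15 adults, with the water renewed daily; the dose, the sex of the fish and the number of livers per library are not stated in the sources used here. Each group is 1 library of 3' SAGE tags, 4420935 tags for arsenate and 2592679 for water, so none of the differences below has a replicate check. Values are RPM, the share of each library's total scaled alike in both, in which a single tag counts 0.226 RPM with arsenate and 0.386 RPM with water. A 3' tag is counted per transcript whatever the transcript's length, so levels need no scaling by length. Comparisons of level between genes still assume that each transcript yields a tag mapped to it, which was not examined. Each ratio is arsenate over water and carries a 95% interval that covers the counting error of independent tags only.

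The libraries differed in more than these genes. The summed level of 9 hepatocyte markers made up 4.71% of tags with arsenate and 12.01% with water. In the sum, that difference came from fabp10a, the fatty acid binding protein gene of hepatocytes, at a ratio of 0.243. The other 8 together had a ratio of 1.007 (0.997 to 1.017), but they were not even singly. Among them the fibrinogen gene fgg was at 1.78, while apoa2 was at 0.570 and uox at 0.653. Of the 8 hepatocyte markers with at least 10 tags, fabp10a included, 5 had a ratio below 1 and 3 above. Exocrine pancreas markers summed to 3887 RPM with arsenate and 39652 RPM with water. Testis markers, which include genes of meiotic and proliferating germ cells, summed to 4.30 RPM with arsenate and 368 RPM with water, from 19 tags over all 16 genes in the former and 955 in the latter.

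In their sums, the replication genes stood at close summed levels in both libraries, while the mitosis genes stood about 3-fold lower in the arsenate library. The 12 replication genes summed to 90.5 RPM with arsenate, from 400 tags, and 88.7 RPM with water, from 230 tags. Their ratio was 1.02 (0.865 to 1.205), and it lay between 0.982 and 1.18 under the other scalings, so no direction is given for the class. The 9 mitosis genes summed to 11.99 RPM with arsenate, from 53 tags, and 39.0 RPM with water, from 101 tags. Their ratio was 0.308 (0.216 to 0.433), a 3.25-fold lower level. Set directly against each other, the ratio of the mitosis class was 3.31-fold below that of the replication class (2.26 to 4.90), a quantity that does not depend on how the libraries are scaled. This difference has the counting error of 53 and 101 mitosis tags and no estimate of the spread between fish. It also rests on a few members of each class. With pcna and the RPA genes left out of replication and mad2l1, aurka and bub3 out of mitosis, a choice made after the values were seen, the ratios were 0.566 for replication and 0.547 for mitosis, and the latter was 0.968 of the former (0.557 to 1.68). Fewer dividing cells in the sample and fewer transcripts per cell cannot be told apart in bulk RNA.

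**Figure D1:**
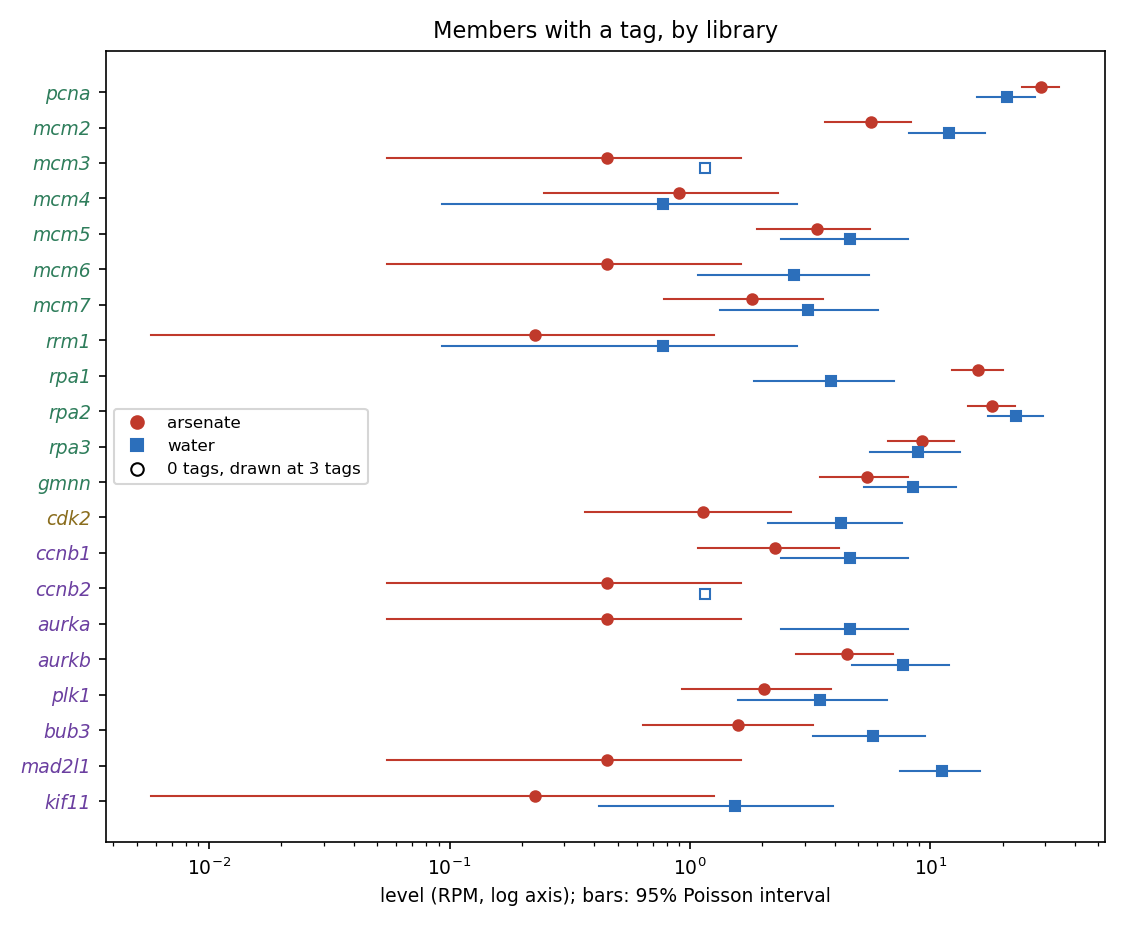
Level of each of the 21 genes with a tag in RPM on a log axis, with circles for the arsenate library, squares for the water library and bars for the 95% Poisson interval of the count. Names are coloured green for replication, ochre for cdk2 and purple for mitosis, and open squares mark 0 tags drawn at 3 tags. Levels run from 0.226 RPM for rrm1 and kif11 to 29.0 RPM for pcna, all in the arsenate library, and the intervals of most genes overlap between libraries.

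With a minimum of 10 tags over both libraries, 15 of the 23 genes could be compared singly. A gene was called when its ratio of RPM + 1 was at least 2 or at most 0.5, a scale that understates the change of genes this low. By this rule 1 of the 15 was higher in the arsenate library and 4 were lower, where 15.6% of all 7839 genes tested were higher and 14.4% lower. The higher gene was rpa1, and the lower ones were mad2l1, aurka, bub3 and cdk2. Read against those shares, 1 of 15 is somewhat less and 4 of 15 somewhat more than the background. The counts are a description and not support, since a gene with few tags passes the minimum only through the library in which it is high. The median log2 ratio of RPM + 1 was -0.56 over the 15 genes and 0.04 over all genes tested, -0.34 for the 8 replication genes and -1.09 for the 6 mitosis genes. These medians, and those of the lists below, take only genes that passed the same minimum, so they too are a description and not support.

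An exact two-sided binomial test of each gene's tags, adjusted by Benjamini-Hochberg over all genes tested, compares these libraries and not the conditions. With a ratio of at least 2 as well, it called the same 5 genes and mcm2. That made 1 gene higher and 5 lower among the 15, beside 13.8% higher and 13.6% lower among all genes.

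**Figure D2:**
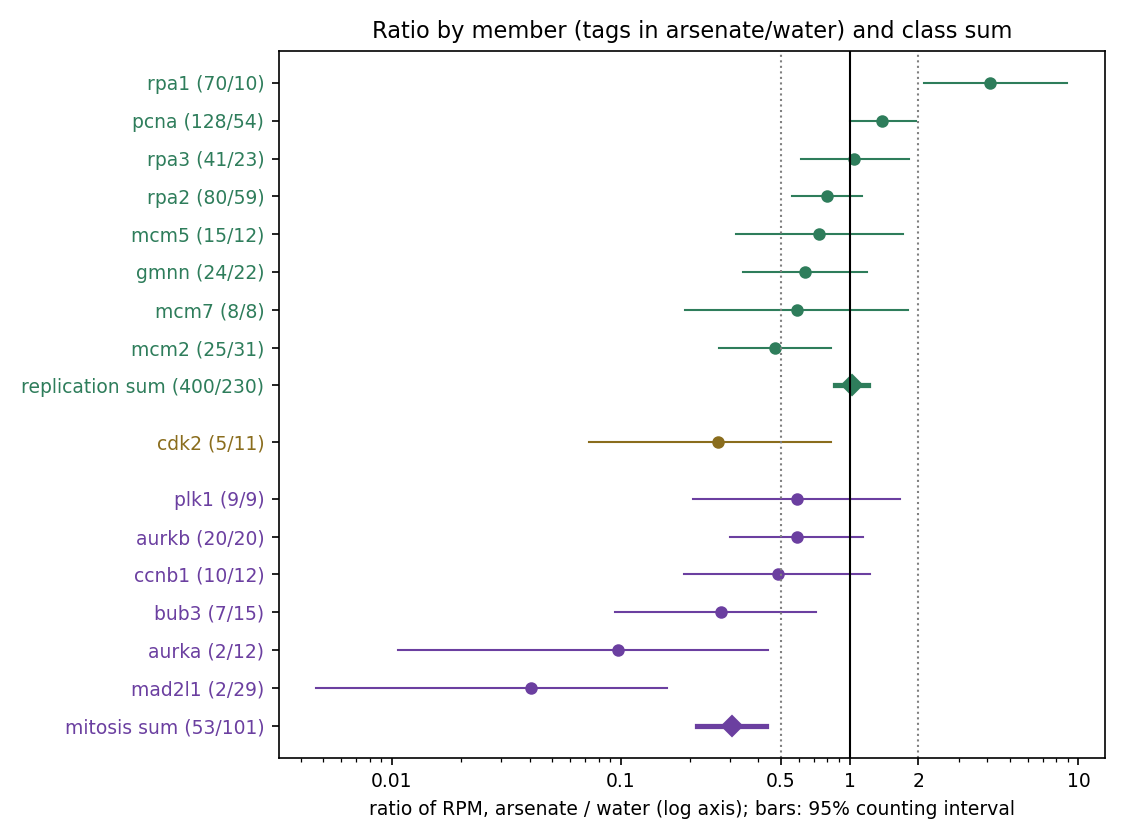
Ratio of RPM, arsenate over water, on a log axis for the 15 genes with at least 10 tags (circles, tags of each library in brackets) and for the class sums over all genes with a row (diamonds), with 95% counting intervals; dotted lines mark 0.5 and 2. The replication sum lies at 1.02 and the mitosis sum at 0.308. All 6 mitosis genes lie below 1, as do 3765 of all 7839 genes tested.

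Within the replication class pcna and the RPA genes held more of the tags than the helicase genes, although in the water library mcm2 stood above rpa1 and rpa3. The clamp gene pcna, which tethers DNA polymerase to the template, had the most tags of all 23 genes over both libraries. It had 128 tags, or 29.0 RPM, with arsenate and 54 tags, or 20.8 RPM, with water, a ratio of 1.39 (1.004 to 1.95). The lower end of that interval falls below 1 with TMM scaling (0.968) and with median-of-ratios size factors (0.978). By its level in the arsenate library pcna stood at percentile 86.2 of all genes with a tag in either library. Even the clamp gene was thus well below the abundant liver transcripts.

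The RPA subunits, which form a trimer on single-stranded DNA, did not share a ratio. The large subunit gene rpa1 stood at 15.8 RPM with arsenate, from 70 tags, and 3.86 RPM with water, from 10 tags, 4.11-fold higher (2.11 to 8.93). The middle subunit gene rpa2 had 18.1 RPM with arsenate and 22.8 RPM with water, a ratio of 0.795 (0.561 to 1.13). The small subunit gene rpa3 had 9.27 RPM and 8.87 RPM, a ratio of 1.045 (0.613 to 1.83) that turned to 0.870 when the arsenate library was thinned to the depth of the other. In the water library rpa1 was thus the least abundant of the 3 subunit genes, and in the arsenate library it was close to rpa2. The replication sum leans on rpa1, since without it the ratio was 0.880 (0.739 to 1.048).

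The genes of the MCM helicase, which unwinds DNA at the fork as a ring of 6 subunits, were together lower in the arsenate library. Their sum was 12.7 RPM with arsenate, from 56 tags, and 23.1 RPM with water, from 60 tags, a ratio of 0.547 (0.373 to 0.801). The subunit gene mcm2 held the largest part of this, with 25 tags against 31, or 5.65 RPM against 11.96 RPM, a ratio of 0.473 (0.268 to 0.828). It missed the ratio rule at -0.96 on the log2 scale of RPM + 1 and passed it with TMM scaling. Without mcm2 the other subunits gave a ratio of 0.627 (0.365 to 1.08), an interval that includes 1.

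Among those other subunits mcm5 had 15 tags against 12, or 3.39 RPM against 4.63 RPM, and mcm7 had 8 tags in each library, or 1.81 RPM against 3.09 RPM. The rest were under the minimum. The subunit gene mcm6, with 2 tags against 7, came just short of it, mcm4 had 4 against 2, and mcm3 had 2 against 0. For mcm3 both libraries are within the floor of 3 tags, so no ratio is given. Subunits of a ring used in equal numbers therefore differed widely in their tags, from 2 for mcm3 to 56 for mcm2 over both libraries.

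The remaining replication genes were gmnn and rrm1. Geminin, the product of gmnn, blocks repeated licensing of origins and is destroyed at the end of mitosis. The gene had 24 tags against 22, or 5.43 RPM against 8.49 RPM, a ratio of 0.640 (0.344 to 1.197). The ribonucleotide reductase gene rrm1, whose enzyme makes deoxynucleotides, had 1 tag with arsenate and 2 with water, too few to place. In all, 5 of the 8 replication genes compared singly had a 95% interval that includes 1. The share of such intervals over all genes was not computed.

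Of the cyclin and kinase group of G1 and S phase, cdk2 alone had tags. It encodes the kinase that partners cyclins E and A at the start of S phase. It had 5 tags, or 1.13 RPM, with arsenate and 11 tags, or 4.24 RPM, with water, 3.75-fold lower (1.202 to 13.8). The whole interval lies below 1, though its bound nearest to 1 is a difference of only 1.202-fold.

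Both genes of the spindle checkpoint were lower in the arsenate library. The gene mad2l1, whose product inhibits the anaphase-promoting complex while chromosomes are unattached, had 2 tags, or 0.452 RPM, with arsenate and 29 tags, or 11.2 RPM, with water. Its ratio was 0.0404 (0.00468 to 0.160), the lowest of the 15. The checkpoint gene bub3, which binds kinetochores, had 7 tags, or 1.58 RPM, against 15 tags, or 5.79 RPM, a ratio of 0.274 (0.0944 to 0.713). In the water library mad2l1 was the most abundant mitosis gene, with 28.7% of the class's tags, and in the arsenate library it held 3.77%. Without mad2l1 the ratio of the class was 0.415 (0.284 to 0.603), and against the replication class 0.407 (0.269 to 0.615), so the difference between the sums did not rest on mad2l1 alone.

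The mitotic kinases were uneven. The spindle pole kinase gene aurka had 2 tags, or 0.452 RPM, with arsenate and 12 tags, or 4.63 RPM, with water, a ratio of 0.0977 (0.0106 to 0.439). Its relative aurkb, the kinase of the chromosomal passenger complex, had 20 tags in each library, 4.52 RPM against 7.71 RPM, a ratio of 0.586 (0.299 to 1.15). The Polo-like kinase gene plk1 had 9 tags in each library, 2.04 RPM against 3.47 RPM, with the same ratio and an interval of 0.206 to 1.67. Equal tags mean a lower RPM in the arsenate library, which was sequenced 1.71-fold deeper. The genes aurka and aurkb are paralogs, and how tags shared by paralogs were mapped is not stated in the sources used here.

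Cyclin B and the motor protein gene were low in both libraries. The gene ccnb1, whose cyclin activates CDK1 at mitotic entry, had 10 tags against 12, or 2.26 RPM against 4.63 RPM, a ratio of 0.489 (0.189 to 1.23). Its paralog ccnb2 had 2 tags against 0, within the floor in both libraries. The kinesin gene kif11, which pushes spindle poles apart, had 1 tag against 4, a ratio of 0.147 (0.00298 to 1.48). Of the 6 mitosis genes with 10 or more tags, 3 had an interval wholly below 1 and 3 had an interval that includes 1. The latter are not shown to be equal between the libraries at this depth. No share of such intervals over all genes was computed, so these counts are a description only.

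**Figure D3:**
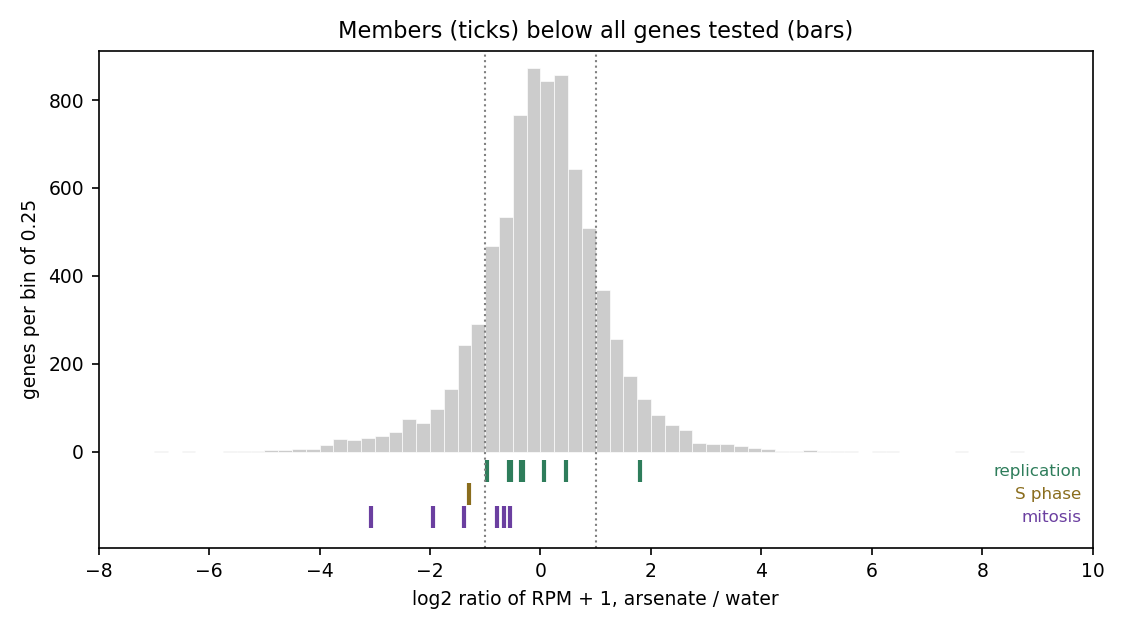
Distribution of the log2 ratio of RPM + 1, arsenate over water, over the 7839 genes tested (grey bars, genes per bin of 0.25), with a tick below for each of the 15 compared genes by class; dotted lines mark the 2-fold limits. The mitosis ticks run from -3.07 for mad2l1 to -0.56 for plk1, and the replication ticks from -0.96 for mcm2 to 1.79 for rpa1.

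Other replication genes, a list of 61 of which 40 had a row, had a lower sum with arsenate than with water. They include origin recognition, clamp loader, polymerase and nucleotide supply genes, and summed to 119 RPM against 171 RPM, a ratio of 0.699 (0.615 to 0.795). Of 21 with at least 10 tags, 1 was called higher, 5 lower and 15 within, beside the 15.6% and 14.4% of all genes. Their median log2 ratio was -0.54, against 0.04 over all genes. The clamp loader gene rfc3 had the most tags, 30.8 RPM against 32.4 RPM, a ratio of 0.949 (0.718 to 1.26) that turned to 1.103 when the most abundant genes were left out of the totals. The histone chaperone gene nasp had 11.1 RPM against 21.2 RPM, a ratio of 0.522 (0.348 to 0.782). The ribonuclease H2 subunit gene rnaseh2c had 43 tags in each library, a ratio of 0.586 (0.375 to 0.917).

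In this list the lowest ratios among called genes whose interval excludes 1 were those of dbf4, tk1 and cdc45. The gene dbf4, which encodes the activator of the CDC7 kinase that fires origins, had 1 tag against 15, or 0.226 RPM against 5.79 RPM, a ratio of 0.0391 (0.000929 to 0.254). The thymidine kinase gene tk1 had 3 tags against 12, a ratio of 0.147 (0.0266 to 0.543). The helicase cofactor gene cdc45 had 4 tags against 13, a ratio of 0.180 (0.0429 to 0.584). The origin recognition gene orc4 was the higher one, with 27 tags against 5, 3.17-fold higher (1.202 to 10.5). Another origin recognition gene, orc3, was called lower, with 14 tags against 31, a ratio of 0.265 (0.130 to 0.513). Compared with these other replication genes, the 12 replication genes of the class above had a ratio 1.46 times as large (1.18 to 1.802), and 1.26 times (1.01 to 1.57) without rpa1. Both sets were chosen with earlier results of these data known, which these intervals do not cover.

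Other mitosis genes, a list of 74 of which 38 had a row, were lower in sum as well. They summed to 175 RPM with arsenate and 314 RPM with water, a ratio of 0.557 (0.504 to 0.615). Of 25 with at least 10 tags, 2 were called higher, 6 lower and 17 within, beside the same 15.6% and 14.4% of all genes. The median log2 ratio of the 25 was -0.36. The gene prc1a, which bundles microtubules at the spindle midzone, held 742 of the tags of this list, 75.8 RPM against 157 RPM, a ratio of 0.483 (0.416 to 0.559). Without it the ratio of the list was 0.631 (0.550 to 0.724). A level this far above the other spindle genes belongs to the transcript as listed, since the tag behind it was not examined.

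The cohesin gene rad21a, which holds sister chromatids together, had 14.5 RPM against 25.5 RPM, a ratio of 0.569 (0.397 to 0.815), and the anaphase-promoting complex gene cdc27 had 9.27 RPM against 9.64 RPM, a ratio that turned above 1 when the most abundant genes were left out of the totals. The lowest ratios among called genes whose interval excludes 1 were those of nusap1, tacc3 and kif23, all of the spindle. The microtubule-binding gene nusap1 had 9 tags against 23, a ratio of 0.229 (0.0935 to 0.515). The centrosome gene tacc3 had 20 against 46, a ratio of 0.255 (0.143 to 0.440), and the midzone kinesin gene kif23 had 8 against 17, a ratio of 0.276 (0.103 to 0.675). In the other direction anapc4, a subunit gene of the anaphase-promoting complex, had 35 tags against 1, a ratio of 20.5 (3.45 to 834).

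Between these wider lists the contrast of mitosis and replication was smaller than between the class members. The ratio of the other mitosis genes was 1.26-fold below that of the other replication genes (1.07 to 1.48), and 1.11-fold (0.917 to 1.34) without prc1a, an interval that includes 1. Over members and other genes as 1 set, mitosis stood 1.53-fold below replication (1.33 to 1.76), and 1.43-fold (1.21 to 1.68) without prc1a. The ratio of this whole replication set was 0.809 (0.731 to 0.894), and that of the whole mitosis set 0.529 (0.481 to 0.582). The mitosis members had a ratio 1.81-fold below that of the other mitosis genes (1.26 to 2.61). Members and lists were chosen with earlier results of these data known. The intervals of members against other genes do not cover that choice and are a description only.

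Genes that control passage through G1 and S phase, 46 listed and 31 with a row, were closer to even. They summed to 123 RPM against 158 RPM, a ratio of 0.780 (0.684 to 0.888), which was 0.903 (0.771 to 1.06) without mycb. Of 14 with at least 10 tags, 2 were called higher, 2 lower and 10 within, shares like the 15.6% and 14.4% of all genes. The median log2 ratio of the 14 was -0.03. The called genes of this list are therefore given as single values. The gene mycb, of the MYC transcription factor family, had 31.7 RPM against 56.7 RPM, a ratio of 0.559 (0.440 to 0.709). The CDK inhibitor gene cdkn1ba had 20.8 RPM against 17.4 RPM, a ratio of 1.199 (0.831 to 1.75), and the repressor gene e2f6 had 12.9 RPM against 16.2 RPM, a ratio of 0.796 (0.525 to 1.22).

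The lowest of this list was foxm1, the transcription factor known in mammals to activate mitotic genes including those of cyclin B and the Polo-like kinase. It had 6 tags, or 1.36 RPM, with arsenate and 43 tags, or 16.6 RPM, with water, a ratio of 0.0818 (0.0285 to 0.193). The ubiquitin ligase gene skp2, which targets CDK inhibitors, had 3 tags against 8, a ratio of 0.2199 (0.0376 to 0.916). The retinoblastoma gene rb1, which restrains entry into S phase, had 27 tags against 3, 5.28-fold higher (1.62 to 27.2). The kinase gene cdk7, which activates other CDKs, had 29 against 6, 2.83-fold higher (1.16 to 8.35). Each of these ratios rests on fewer than 50 tags.

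Every list of cell type markers had a summed ratio below 1, as the mitosis class had, with an interval that includes 1 for the ovary list alone. A sum below 1 did not always stand for the single markers of a list. The hepatocyte sum was at 1.007 without fabp10a, though 5 of 8 tested had a ratio below 1. Of the macrophage and neutrophil markers, 6 of 10 tested had a ratio above 1. In the pancreas, testis, enterocyte and erythrocyte lists 21 of 22, 9 of 9, 8 of 8 and 9 of 9 were below 1. Over all genes tested, 3765 of 7839 were below 1. Of 16 testis markers with a row, 15 had a tag, with 0 to 5 tags each in the arsenate library, so the 9 that reached 10 tags did so through the water library. The Leydig cell hormone gene insl3 had 2 tags against 444 and the meiotic chromosome gene sycp1 had 2 against 116. The germ cell genes ddx4 and piwil1 had 0 tags with arsenate and 4 and 3 with water. Other markers of this list had more tags with water, such as hormad1 with 1 against 112, dazl with 1 against 45 and tdrd1 with 1 against 37. The summed testis level was 0.0117 of its water value (0.00699 to 0.0183), far below the 0.308 of the mitosis class. Ovary and oocyte markers had 8 tags against 10 in all, most of them in zp3b, with zp3a.1 next at 1 tag in each library and 7 of 14 at 0 in both libraries. The part of testis transcripts in the mitosis result was not tested.

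Enterocyte markers summed to 990 RPM against 1687 RPM, a ratio of 0.587 (0.563 to 0.612), which the abundant apoa1b and apoa4b.2 set, at ratios of 0.684 and 0.580. The median log2 ratio of the 8 tested was -2.10, with 5 called lower. These ran from fabp2 at a ratio of 0.0690 to fabp1b.1 at 0.253, both picked out with their values known. Exocrine pancreas markers had a ratio of 0.0980 (0.0965 to 0.0996), with 20 of 22 tested called lower, prss59.1 and cela1.6 holding the most tags. Erythrocyte markers had a ratio of 0.748 (0.699 to 0.8003), with 5 of 9 called lower. Their most abundant genes hbba1 and ba1l were at 0.973 and 0.927, values that turned above 1 without the most abundant genes in the totals. Macrophage and neutrophil markers had a ratio of 0.767 (0.717 to 0.821), with 3 of 10 called higher and 2 lower. The 3 were mpeg1.2, lyz and mmp9, named after their values were seen. The markers with the most tags were lgmn, at a ratio of 1.69, and cd74b, at 0.166. The median log2 ratio of the 10 tested was 0.60, with 6 ratios above 1 and 4 below. The lymphocyte list had 4 rows and tags in rag2 alone, 5 against 11, with cd4-1 among those listed at 0. The part of these tissues in the cell cycle values was not tested either.

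**Figure D4:**
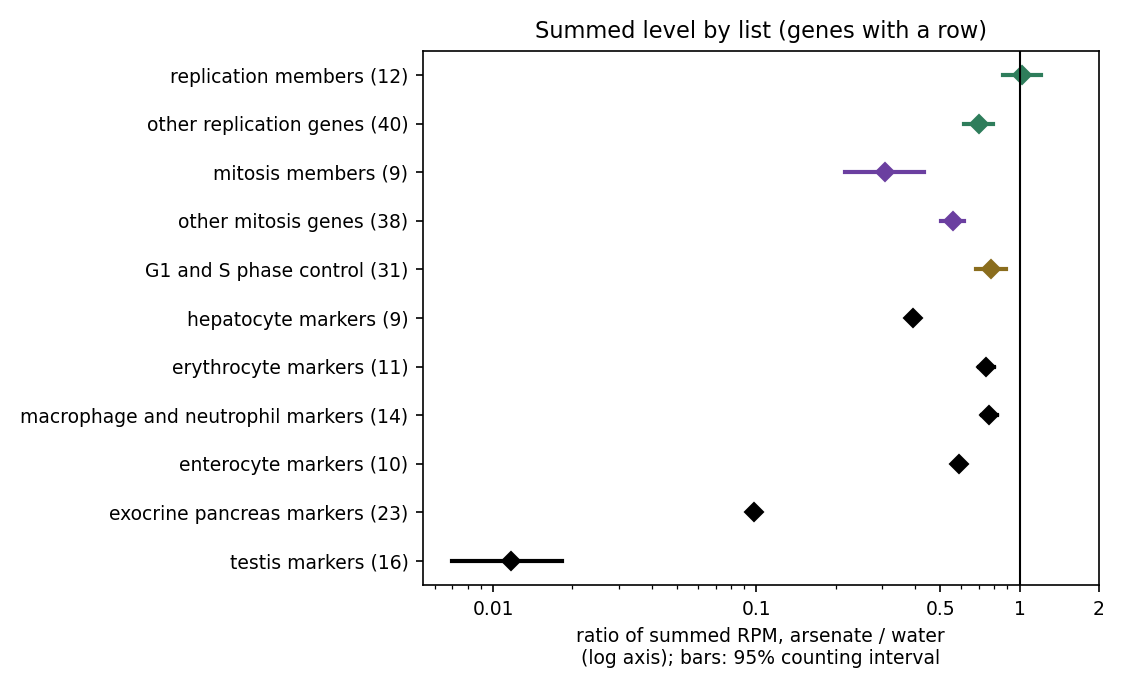
Ratio of summed RPM, arsenate over water, on a log axis for the replication and mitosis classes, the wider lists and the marker lists, with the number of genes with a row in brackets and 95% counting intervals as bars. The replication class sits at 1.02, the mitosis class at 0.308 and the testis markers at 0.0117.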

How the data were processed

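Liver RNA was measured in 2 libraries, 1 per group, as the labels assign them. Per the labels' design text and protocols, 3' SAGE tags were sequenced on SOLiD. The authors deposited 1 table per library with 17991 transcripts and a column headed TPM, read here as RPM, because all values are whole multiples of the smallest within 0.01 tags (100%) and both columns have the same sum; a blank was taken as 0. Mapping tool, reference and filters: not given in the sources used here. Of 10556 RefSeq accessions, 9463 matched a current symbol of assembly GRCz12tu, used for names only; the other rows, 7435 of them with just a GI number, kept their identifier. Rows with equal symbols were added up.

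Ratios of RPM carry 95% intervals obtained from the Clopper-Pearson bounds on arsenate's part of a gene's tags; class sums take every gene with a row, and ratios of ratios carry conditional exact intervals. Levels carry exact Poisson intervals. All cover counting error only, since PCR copies are not independent molecules. Calls need 10 tags over both libraries and a 2-fold ratio of RPM + 1 in either direction (2 or more, 0.5 or less). With 1 library per group there is no test between conditions. Zeros have a limit of 3 tags.

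Every member with a row is named. Of the wider lists the 3 genes with most tags are named, and up to 3 highest and 3 lowest called genes whose interval excludes 1; of each marker list the 2 with most tags. Other testis values, the genes orc3, apoa2 and uox, and comparisons between the wider lists were added after the values were seen. Members and lists were chosen with earlier results of these data known. Alternatives were scaling by TMM (edgeR 4.0.16) or by size factors (DESeq2 1.42.0), totals that leave out the 10 most abundant genes of each library, thinning of the arsenate library, the row with most tags, other minimums, pseudocounts and folds, and an exact two-sided binomial test of the tags. That test called 1084 genes higher and 1065 lower, at an adjusted p under 0.05 and at least a 2-fold ratio in either direction. Added after seeing the data were each member left out, the leading members of both classes left out together, and totals without the pancreas, testis, ovary and enterocyte marker tags. Scripts ran in R 4.3.3 and Python 3.11.15 (scipy 1.17.1) and were tested on simulated data.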

Additional observations from a re-analysis of the deposited data

How the results depend on the processing

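With any single member left out, with the member of most tags left out of both classes, and under every scaling or thinning run, the mitosis ratio lay between 0.239 (without aurkb) and 0.415 (without mad2l1) and its ratio to replication between 0.264 and 0.407, all below 1. Scaling cannot change the ratio of mitosis to replication, which varied only with left-out members and thinning. Over all these settings the replication ratio lay between 0.880 (without rpa1) and 1.18 (totals without the most abundant genes). With those totals its interval of 1.005 to 1.3996 lies above 1. Without pcna, the RPA genes, mad2l1, aurka and bub3 together the ratios were 0.566 (0.412 to 0.777) for replication and 0.547 (0.351 to 0.853) for mitosis. Mitosis against replication was then 0.968, so the contrast between the class sums was not seen without these genes. They were chosen after the values were seen and include the lowest mitosis ratios of the genes tested. A smaller contrast without them therefore follows in part by construction. Leaving the most abundant genes out of the totals shifted the median over all genes up by 0.20 (log2) and the share of higher genes among all calls from 52.1% to 63.3% (1680 higher, 975 lower); the other scalings moved the median by under 0.1. Of the 5 members called, 1 higher and 4 lower, the counts were 1 and 0 with at least 50 tags (5 members tested), 1 and 1 with a pseudocount of 5 RPM, 1 and 7 at 1.5-fold, and 0 and 1 at 4-fold. Over all genes, 1222 higher and 1125 lower became 713 and 565, 580 and 610, 2176 and 1913, and 303 and 351 under these same settings. Fewer genes tested or a stricter rule gives the smaller counts by construction. Under every scaling and thinning, rpa1, mad2l1, aurka, bub3 and cdk2 remained called. Among 50 named genes, 14 ratios recomputed under a scaling, thinning or the row with most tags left their counting interval and 236 did not, and no ratio whose interval excluded 1 changed direction. No paired analysis was possible because each group has 1 library. Depth limits single genes, and with 10 to 20 tags the intervals of a ratio were wide. Examples are 0.206 to 1.67 for plk1, with 18 tags, and 0.0106 to 0.439 for aurka, with 14 tags. No alternative addresses variation between fish.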
